A study of Mus musculus with 6 samples.

Results

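The genes described are 9 enzymes and carriers of vitamin A and retinoic acid metabolism: Bco1, Stra6, Lrat, Rdh10, Dhrs3, Aldh1a1, Aldh1a2, Aldh1a3 and Crabp2. They were taken by symbol from the count tables of 6 mouse RNA-seq libraries, in which all 9 have a row, out of 20571 genes shared by the tables. The libraries are of liver progenitor-like cells (LPCs) from 3 sources, with 2 libraries each, all from C57BL/6 mice labelled 6 to 8 weeks old and all grown in Transition and Expansion Medium (TEM). Bec_LPCs came from wild-type mice, from pieces of intrahepatic bile duct kept in matrigel, passaged and sorted for Epcam, an epithelial surface protein. NPC_LPCs came from the non-parenchymal cells of AlbCreERT/R26GFP livers. Hep_LPCs came from hepatocytes of ROSA26tdTomato mice given AAV8-TBG-Cre, a virus whose TBG promoter drives Cre in hepatocytes. Per the labels' protocols, sequencing was meant to clarify how the NPC-derived and hepatocyte-derived cells differ. The labels do not say whether the 2 libraries of a group came from separate mice or cultures, so each p-value measures the spread between these libraries, which may be technical. In Hep_LPCs the Y-linked gene Ddx3y had 1032 reads in replicate 1 and 1 in replicate 2, so that pair was not 1 RNA sample read again. Whether it came from separate mice was not tested.

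Vitamin A reaches cells as retinol or as a carotenoid. BCO1 cleaves beta-carotene to retinal, STRA6 is a membrane receptor that moves retinol between the plasma carrier RBP4 and the cell, and LRAT esterifies retinol for storage, which in liver takes place mainly in stellate cells. RDH10 oxidises retinol to retinal and DHRS3 reduces retinal back to retinol. The ALDH1A enzymes oxidise retinal to retinoic acid, and CRABP2 carries retinoic acid to its nuclear receptors.

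Library totals ran from 17575998 to 22985888 reads. Levels are CPM, read counts scaled to a common library size on the TMM scaling of all 6 libraries, and differences are log2 fold changes with their standard error (SE) from edgeR's quasi-likelihood test, with p adjusted over all genes tested and called below 0.05. Where 1 library of a group is left out, the remaining library is assumed to vary like those of the other groups in the fit. Comparisons with Bec_LPCs were fitted on all 6 libraries, so their errors also carry the spread within the group not compared. The 7 hepatocyte markers summed to 257 to 265 CPM in Hep_LPCs, 105 to 128 CPM in Bec_LPCs and 29.2 to 51.4 CPM in NPC_LPCs, nearly all of it Hnf4a. The other 6 summed to 9.66 CPM or less in every library, with Alb at 2 to 41 reads and Cyp3a11 at 0 reads in all 6. The 7 biliary markers summed to 3548 to 4210 CPM in Bec_LPCs, 4911 to 10004 CPM in NPC_LPCs and 2332 to 5031 CPM in Hep_LPCs, most of it Spp1. Without Spp1 the sums were 1096 and 1129 CPM, 594 and 598 CPM, and 1844 and 1380 CPM. Epcam was at 59.0 and 65.7 CPM in Bec_LPCs and at 1.84 CPM or less in the other 4 libraries, and Cftr was at 1.46 CPM or less in all 6. Replicates differed beyond sampling noise, with a chi-square per degree of freedom of 5.52 between the Bec_LPCs libraries, 111 between the NPC_LPCs libraries and 92.5 between the Hep_LPCs libraries. The Y-linked gene Ddx3y had 1 read in Hep_LPCs replicate 2 and 60.4 to 102 CPM in the other 5 libraries. The Bec_LPCs count tables are laid out differently from the others, so source, genotype, sort and table layout cannot be told apart in any comparison with Bec_LPCs. Between Hep_LPCs and NPC_LPCs, source, mouse genotype and the virus given cannot be told apart either.

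Bco1 and Aldh1a2 were called in opposite directions between Bec_LPCs and Hep_LPCs, and the promoters of these 2 genes are shown so that they can be set beside the levels. Each window, from RefSeq on GRCm38.p6 (mm10), holds the 250 bases before the gene's RefSeq start on the plus strand, with Bco1 at chr8:117095615-117095864 and Aldh1a2 at chr9:71215539-71215788. Capitals mark the hexamer AGGTCA, the core motif of retinoid and related nuclear receptors, which reads TGACCT where it lies on the opposite strand.
Bco1: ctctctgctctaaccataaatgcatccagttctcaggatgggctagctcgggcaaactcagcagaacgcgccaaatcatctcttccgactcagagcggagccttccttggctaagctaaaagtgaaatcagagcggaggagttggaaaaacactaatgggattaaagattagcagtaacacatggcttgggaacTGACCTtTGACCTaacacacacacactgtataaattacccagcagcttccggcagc
Aldh1a2: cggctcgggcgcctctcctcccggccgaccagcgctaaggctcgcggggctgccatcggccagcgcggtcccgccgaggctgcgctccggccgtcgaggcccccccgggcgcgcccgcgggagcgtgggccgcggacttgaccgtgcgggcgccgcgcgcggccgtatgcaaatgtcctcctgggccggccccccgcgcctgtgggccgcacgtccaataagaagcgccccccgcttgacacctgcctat
The Bco1 window holds the hexamer at 2 places, beginning 56 and 49 bases before the start, on the opposite strand and 1 base apart. Direct repeats with a gap of 1 base (DR1), built from AGGTCA or AGTTCA on either strand, were found in 22 of 32851 promoter windows of this length (0.0670%). This spacing was added to the search after the windows had been seen. Single hexamers are common, with AGGTCA in 14.02% of all windows, AGTTCA in 11.8% and either of them in 24.2%. The Aldh1a2 window has neither hexamer. It is instead rich in G and C, at 77.6% with 40 CG pairs, against 48.0% and 7 CG pairs for Bco1 and a median of 6 CG pairs over all windows. RefSeq windows were at hand for 6 of the 9 genes, 12 windows in all, and no other one of them held either hexamer. The 5-base spacing (DR5) typical of retinoic acid receptor elements was in 0 of the 12 windows and in 11 of all windows (0.0335%). A match describes the sequence alone, and binding was not measured.

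Bco1, the gene of the carotene-cleaving enzyme (chromosome 8, 117095854 to 117133720, plus strand), was read at a substantial level only in the hepatocyte-derived libraries. Its levels were 32.1 and 35.5 CPM in Hep_LPCs, 1.21 and 1.78 CPM in NPC_LPCs, and 1.52 and 2.27 CPM in Bec_LPCs. The Hep_LPCs libraries therefore stood above the other 4, whose ranges overlapped one another. Bco1 was 22.1-fold higher in Hep_LPCs than in NPC_LPCs (log2 4.46 ± 0.40 SE, n = 2 per group, edgeR adjusted p = 0.0336). It was lower in Bec_LPCs than in Hep_LPCs by 17.8-fold (log2 -4.15 ± 0.35 SE, edgeR adjusted p = 0.00216). Between Bec_LPCs and NPC_LPCs the difference was within the replicate spread (log2 0.34 ± 0.34 SE, edgeR adjusted p = 0.540). The call against NPC_LPCs was lost with limma-voom (adjusted p = 0.0646) and when either Hep_LPCs library was left out (edgeR adjusted p = 0.139 without replicate 1 and 0.193 without replicate 2), although the log2 difference stayed between 4.22 and 4.79 with each library left out in turn. The call against Bec_LPCs was kept with each of the 6 libraries left out.

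Bco1 is best known from intestinal cells, where ISX represses it. Isx had 7 and 4 reads in Hep_LPCs and 0 reads in the other 4 libraries. The intestinal transcription factor gene Cdx2 was at 34.7 and 30.9 CPM in Hep_LPCs, 3.52 and 4.52 CPM in NPC_LPCs, and at 2 reads in each Bec_LPCs library. It was called higher in Hep_LPCs than in NPC_LPCs (7.99-fold, SE 0.35 on the log2 scale, edgeR adjusted p = 0.0392), a call lost with limma-voom (adjusted p = 0.0664) and without either Hep_LPCs library (edgeR adjusted p = 0.175 and 0.193). The 7 intestinal markers summed to 61.8 to 102 CPM in Hep_LPCs, 78.6 to 87.8 CPM in Bec_LPCs and 6.29 to 24.4 CPM in NPC_LPCs, with Cdx1 at 0 in all libraries. In Bec_LPCs most of that sum was Cdh17, a cadherin of liver and intestine, at a mean of 71.8 CPM. Without Cdh17 the sums were 85.5 and 54.7 CPM in Hep_LPCs, above 12.1 and 10.7 CPM in Bec_LPCs and 5.89 and 10.4 CPM in NPC_LPCs. Among the rest was Lgals4, an intestinal galectin gene, at 31.0 and 12.3 CPM in Hep_LPCs and 1.03 to 2.19 CPM in the other 4 libraries. It was called lower in Bec_LPCs than in Hep_LPCs (log2 -4.13 ± 0.58 SE, edgeR adjusted p = 0.00671), while its difference between Hep_LPCs and NPC_LPCs was not called (log2 3.50 ± 0.59 SE, edgeR adjusted p = 0.0693). Vil1, another of the markers, was at 19.3 and 11.2 CPM in Hep_LPCs, 10.3 and 9.30 CPM in Bec_LPCs, and 0.115 and 4.27 CPM in NPC_LPCs. Its difference between Bec_LPCs and Hep_LPCs was not called (edgeR adjusted p = 0.671), nor were its others. Fabp2 had 8 and 6 reads in Bec_LPCs, above 3 and 1 in Hep_LPCs and 1 and 0 in NPC_LPCs. Whether cells of an intestinal type had a part in the Bco1 difference was not tested. In bulk RNA, fewer cells of a type and less RNA per cell cannot be told apart.

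Stra6, the retinol receptor gene (chromosome 9, 58063788 to 58153996, plus strand), had the widest range of the 8 genes with reads. It was read at 562 and 417 CPM in Hep_LPCs, 68.5 and 7.93 CPM in NPC_LPCs, and 4.73 and 2.96 CPM in Bec_LPCs. The 3 groups did not overlap, but the NPC_LPCs libraries differed 8.64-fold from each other. Stra6 was 127-fold lower in Bec_LPCs than in Hep_LPCs (log2 -6.99 ± 1.13 SE, edgeR adjusted p = 0.00959). That call was lost without either Bec_LPCs library (edgeR adjusted p = 0.103 without replicate 1 and 0.107 without replicate 2). The difference between Hep_LPCs and NPC_LPCs was not called (log2 3.67 ± 1.01 SE, edgeR adjusted p = 0.140), and neither was that between Bec_LPCs and NPC_LPCs (log2 -3.31 ± 0.97 SE, edgeR adjusted p = 0.0804). With a single NPC_LPCs library in the fit, so that the spread came from the libraries of the other groups fitted, leaving out replicate 1 gave a log2 difference of 5.93 between Hep_LPCs and NPC_LPCs (edgeR adjusted p = 0.00317), and leaving out replicate 2 gave 2.83 (edgeR adjusted p = 0.0440). Against Bec_LPCs, leaving out NPC_LPCs replicate 2 brought a call (log2 -4.15, edgeR adjusted p = 0.0146). DESeq2's Wald test called both (adjusted p = 0.0389 and 0.0178).

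Lrat, the gene of the retinol-esterifying enzyme (chromosome 3, 82892579 to 82903973, minus strand), had 0 reads in all 6 libraries and was not tested. A count of 0 allows up to 3 reads, which is 0.127 to 0.178 CPM across the libraries and covers counting error only. Lrat is a defining gene of stellate cells in liver. The 10 stellate markers summed to 102 to 123 CPM in Bec_LPCs, 3.29 to 4.47 CPM in NPC_LPCs and 8.66 to 11.5 CPM in Hep_LPCs. In Bec_LPCs Acta2, a smooth muscle actin gene that is not confined to stellate cells, made up a mean of 85.8 CPM of that sum, and Cygb was at 0. Without Acta2 the other 9 markers summed to 24.7 and 29.2 CPM in Bec_LPCs, 3.29 and 2.13 CPM in NPC_LPCs, and 11.5 and 8.66 CPM in Hep_LPCs. Acta2, Pdgfrb and Rgs5 were called higher in Bec_LPCs than in both other groups, and Reln than in NPC_LPCs. Des was higher in both Bec_LPCs libraries than in any other library, without a call. Hand2 had 6 and 11 reads in Bec_LPCs and 0 elsewhere, and was not tested. The remaining markers did not follow. Reln had a higher mean in Hep_LPCs (7.47 CPM) than in Bec_LPCs (5.82 CPM). Colec11 had its highest mean in NPC_LPCs (0.445 CPM, against 0.362 CPM for Bec_LPCs), as did Lhx2 (0.210 against 0.191 CPM). Ngfr had 0 or 1 read in each library, and Cygb was read only in Hep_LPCs. Pdgfrb, a receptor gene of stellate cells and pericytes, had 105 and 125 reads in Bec_LPCs and 0 or 1 in the other libraries (edgeR adjusted p = 0.0173 against NPC_LPCs and 0.00773 against Hep_LPCs). Rgs5, a pericyte gene, had 237 and 373 reads in Bec_LPCs and 4 to 22 elsewhere (edgeR adjusted p = 0.0356 and 0.0223).

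**Figure D1:**
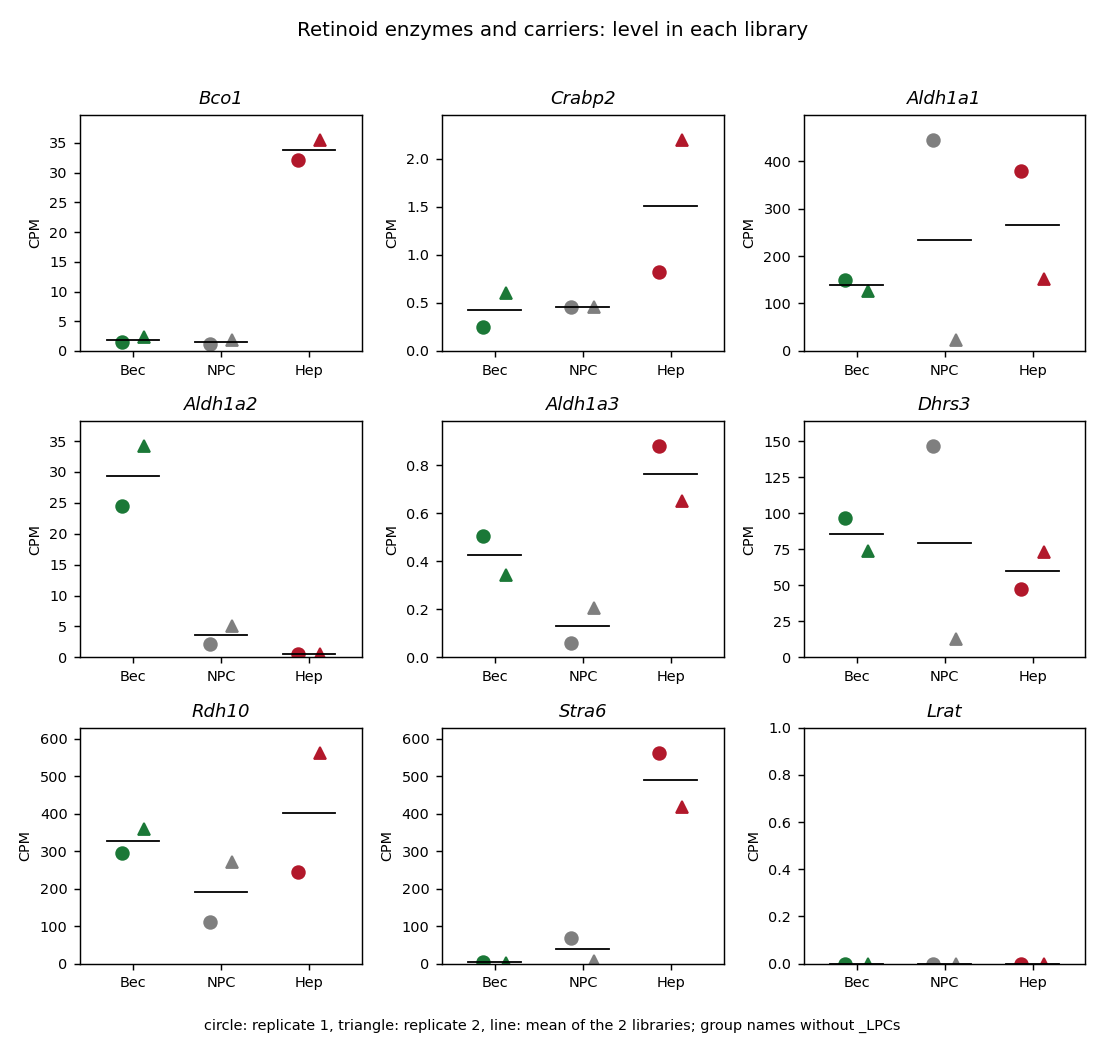
Levels of the 9 genes in each library, as CPM on linear axes that start at 0, with a circle for replicate 1, a triangle for replicate 2 and a line at their mean. Hep_LPCs stand apart for Bco1 and Stra6, Bec_LPCs for Aldh1a2, and the 2 NPC_LPCs libraries lie far apart for Aldh1a1, Dhrs3 and Stra6.

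Rdh10 and Dhrs3, the members whose enzymes interconvert retinol and retinal, were read in all 3 groups and were called in no comparison. Rdh10 (chromosome 1, 16105774 to 16133734, plus strand) was at 296 and 360.1 CPM in Bec_LPCs, 109.9 and 271 CPM in NPC_LPCs, and 244 and 562 CPM in Hep_LPCs. Hep_LPCs overlapped both other groups, and both Bec_LPCs libraries lay above the NPC_LPCs libraries. The log2 differences were 1.05 ± 0.58 SE for Hep_LPCs over NPC_LPCs, 0.79 ± 0.54 SE for Bec_LPCs over NPC_LPCs and -0.30 ± 0.53 SE for Bec_LPCs over Hep_LPCs, with edgeR adjusted p of 0.347, 0.365 and 0.690. The last of these turned to 0.43 without Hep_LPCs replicate 2. Dhrs3, the retinal reductase gene (chromosome 4, 144892827 to 144928209, plus strand), was at 97.1 and 73.7 CPM in Bec_LPCs, 146 and 12.96 CPM in NPC_LPCs, and 47.2 and 73.2 CPM in Hep_LPCs. The NPC_LPCs libraries lay on either side of all the others, and the lower Bec_LPCs library was barely above the higher Hep_LPCs library. None of its differences was called (log2 -0.41 ± 1.02 SE for Hep_LPCs over NPC_LPCs, 0.10 ± 0.95 SE for Bec_LPCs over NPC_LPCs and 0.50 ± 0.96 SE for Bec_LPCs over Hep_LPCs, edgeR adjusted p = 0.847, 0.954 and 0.705). The SE of Bec_LPCs over Hep_LPCs also carries the gap between the NPC_LPCs libraries, which were in that fit. Without NPC_LPCs replicate 1 Dhrs3 was called higher in Bec_LPCs than in NPC_LPCs (log2 2.67, edgeR adjusted p = 0.0371), and without replicate 2 the difference was -0.78. In both cases NPC_LPCs is 1 library and the other groups give the spread, so the 11.3-fold gap between its libraries is not in the error.

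Of the enzymes that make retinoic acid, Aldh1a2 was called highest in the bile duct-derived libraries, while Aldh1a1 was the most abundant in every library and was called in no comparison. Aldh1a2 (chromosome 9, 71215789 to 71296243, plus strand) was at 24.6 and 34.1 CPM in Bec_LPCs, 2.08 and 5.08 CPM in NPC_LPCs, and 0.527 and 0.534 CPM in Hep_LPCs, where each library had 9 reads. The 3 groups did not overlap. Aldh1a2 was 54.7-fold higher in Bec_LPCs than in Hep_LPCs (log2 5.77 ± 0.57 SE, edgeR adjusted p = 0.00303), a call kept with each of the 6 libraries left out. It was 8.16-fold higher in Bec_LPCs than in NPC_LPCs (log2 3.03 ± 0.48 SE, edgeR adjusted p = 0.0219), and this call was lost without either Bec_LPCs library (edgeR adjusted p = 0.120 without replicate 1 and 0.182 without replicate 2). Hep_LPCs and NPC_LPCs were not called apart for it (log2 -2.77 ± 0.80 SE, edgeR adjusted p = 0.137), though they were with all 6 libraries in the fit (log2 -2.74, edgeR adjusted p = 0.0368).

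Aldh1a2 is known from mesenchymal and mesothelial cells of the liver region. As given for Lrat, the summed stellate markers were higher in both Bec_LPCs libraries than in the other 4, with and without Acta2. Reln, Colec11, Lhx2, Ngfr and Cygb did not each follow the sum, and Acta2 and Rgs5 are not confined to stellate cells. The 6 portal fibroblast markers, almost all Fbln2, summed to 3689 to 3970.2 CPM in Bec_LPCs, 2722 to 3769 CPM in NPC_LPCs and 569 to 734 CPM in Hep_LPCs, with Thy1 at 0 in NPC_LPCs and Hep_LPCs. Without Fbln2 the order changed, and both Bec_LPCs libraries were lowest. The other 5 markers then summed to 2.79 and 2.83 CPM in Bec_LPCs, 9.64 and 3.66 CPM in NPC_LPCs, and 6.15 and 17.9 CPM in Hep_LPCs. That order was set by Entpd2, at 1.86 and 1.33 CPM in Bec_LPCs, 9.47 and 3.61 CPM in NPC_LPCs, and 5.62 and 17.7 CPM in Hep_LPCs. Thy1 and Cd34 went the other way. Thy1 had 5 and 13 reads in Bec_LPCs, and Cd34 had 17 and 16, against 0 in NPC_LPCs and 8 and 1 in Hep_LPCs. Eln and Gli1 had 0 to 3 reads in each library. The 6 mesothelial markers, mostly Msln, overlapped between all groups, at 537 to 574 CPM in Bec_LPCs, 238 to 645 CPM in NPC_LPCs and 213 to 866 CPM in Hep_LPCs. The part of other cell types in the Aldh1a2 difference was not tested.

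Aldh1a1 (chromosome 19, 20492715 to 20643465, plus strand) was at 150.3 and 126 CPM in Bec_LPCs, 444 and 22.9 CPM in NPC_LPCs, and 379 and 152 CPM in Hep_LPCs. The NPC_LPCs libraries were both the highest and the lowest of the 6. Bec_LPCs and Hep_LPCs were compared in the fit of all 6, so the error of that difference carries this gap too. The differences had large errors and were not called (log2 0.18 ± 1.24 SE for Hep_LPCs over NPC_LPCs, -0.76 ± 1.17 SE for Bec_LPCs over NPC_LPCs and -0.94 ± 1.17 SE for Bec_LPCs over Hep_LPCs, edgeR adjusted p = 0.953, 0.693 and 0.557). Without NPC_LPCs replicate 1 the first became 3.51 and was called (edgeR adjusted p = 0.0445), and without replicate 2 it was -0.75 (edgeR adjusted p = 0.530). The spread then came from the Hep_LPCs libraries alone, and the 19.4-fold gap between the NPC_LPCs libraries is not in the error. Its transcript is 91.9% identical over 1563 bases to that of Aldh1a7, a close relative at 0.102 to 6.53 CPM, so some reads may have been shared. Aldh1a3 (chromosome 7, 66390890 to 66427517, minus strand) was near the floor, with 12 and 8 reads in Bec_LPCs, 1 and 4 in NPC_LPCs, and 15 and 11 in Hep_LPCs. Both NPC_LPCs libraries were below the other 4, but its differences were not called (edgeR adjusted p = 0.242 for Hep_LPCs over NPC_LPCs, 0.250 for Bec_LPCs over NPC_LPCs and 0.408 for Bec_LPCs over Hep_LPCs).

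Levels of different genes were set side by side per kilobase of the principal transcript. On that scale Aldh1a2 made up 14.5% and 21.9% of the summed ALDH1A level in Bec_LPCs, 0.485% and 18.7% in NPC_LPCs, and 0.144% and 0.363% in Hep_LPCs. NPC_LPCs replicate 2 thus had a share between those of the Bec_LPCs libraries, at a summed level of 12.0 CPM per kilobase against 64.9 to 189 in the other 5. Aldh1a1 held 77.9% to 99.7% of the sum in the 6 libraries. With the union of exons as the length, the Aldh1a2 share was 26.2% and 37.0% in Bec_LPCs, 1.01% and 32.4% in NPC_LPCs, and 0.301% and 0.756% in Hep_LPCs.

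**Figure D2:**
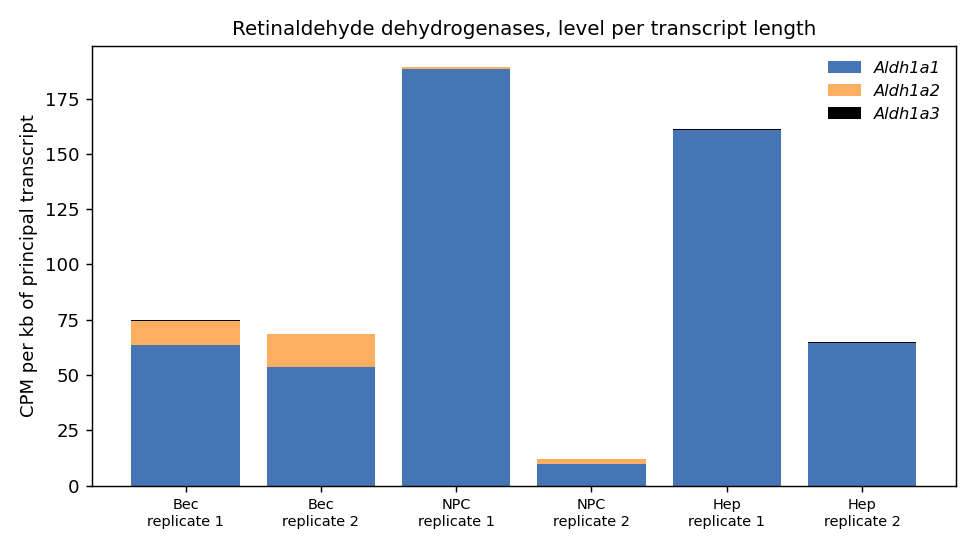
Levels of the 3 ALDH1A genes stacked in 1 bar per library, in CPM per kilobase of principal transcript. Aldh1a1 makes up most of every bar, Aldh1a2 is visible mainly in the Bec_LPCs bars, and the bar of NPC_LPCs replicate 2 is the lowest at 12.0.

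Crabp2, the gene of the retinoic acid carrier (chromosome 3, 87948666 to 87953376, plus strand), was low throughout, at 0.253 and 0.600 CPM in Bec_LPCs, 0.462 and 0.457 CPM in NPC_LPCs, and 0.819 and 2.20 CPM in Hep_LPCs. Both Hep_LPCs libraries lay above the other 4. The difference was not called against NPC_LPCs (log2 1.68 ± 0.87 SE, edgeR adjusted p = 0.316) or for Bec_LPCs over Hep_LPCs (log2 -1.81 ± 0.78 SE, edgeR adjusted p = 0.123).

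Across the 9 genes, the calls were 1 of 8 tested between Hep_LPCs and NPC_LPCs (Bco1, higher), where 0.781% of all 12159 genes tested were called. They were 1 of 8 between Bec_LPCs and NPC_LPCs (Aldh1a2, higher), where 11.3% of 12867 genes were called, a share near that of the members. They were 3 of 8 between Bec_LPCs and Hep_LPCs (Aldh1a2 higher, Bco1 and Stra6 lower), where 33.4% of genes were called, again near the members' share. The libraries of the groups did not overlap for 5 of the 8 genes between Hep_LPCs and NPC_LPCs, 4 of 8 between Bec_LPCs and NPC_LPCs, and 7 of 8 between Bec_LPCs and Hep_LPCs. Over all genes tested these shares were 56.5%, 70.0% and 77.6%. The members' median log2 difference was 1.37, 0.22 and -0.89 in the 3 comparisons, against -0.0044, 0.010 and 0.031 over all genes. The comparisons share libraries, so their values are not independent.

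**Figure D3:**
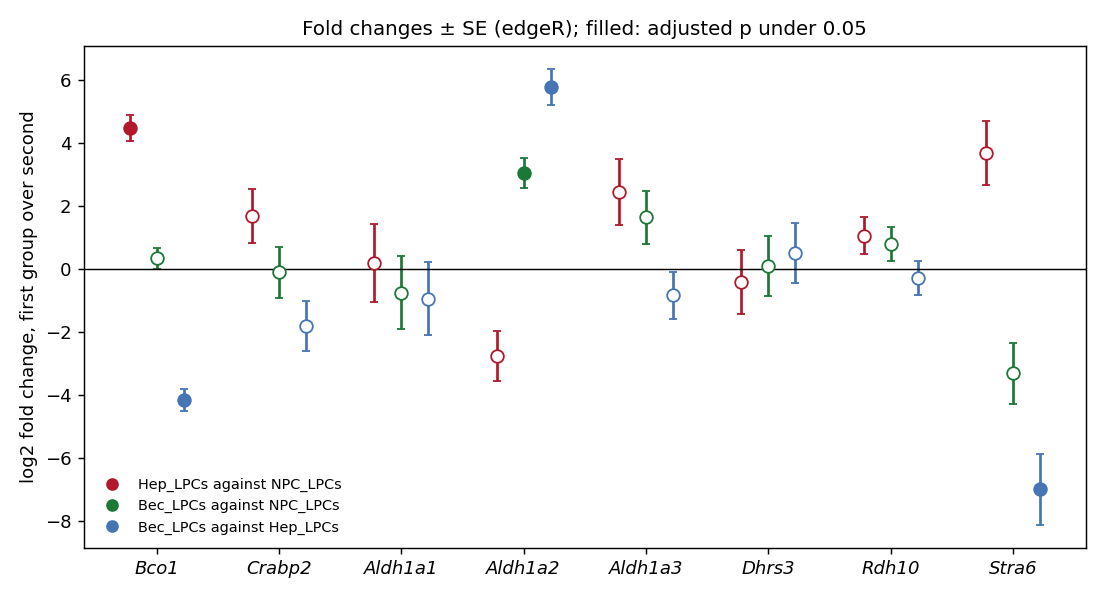
Log2 fold changes of the 8 tested genes in the 3 comparisons, with bars of 1 SE from edgeR's quasi-likelihood fit and filled points for adjusted p below 0.05. The calls are Bco1 and Aldh1a2 in 2 comparisons each and Stra6 in 1, and the bars of Aldh1a1 and Dhrs3 reach across 0 in each comparison.

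The NPC_LPCs replicates differed for several of these genes in 1 direction. Replicate 1 was 19.4-fold above replicate 2 for Aldh1a1, 11.3-fold for Dhrs3 and 8.64-fold for Stra6. Of 9404 genes at 10 CPM or more in either library, 56 (0.595%) were at least 8-fold higher in replicate 1, a fold chosen after these values were seen. The fourth member at that level, Rdh10, was 2.46-fold higher in replicate 2. Stra6l, a relative of Stra6, also differed, at 23.4 and 5.39 CPM in replicates 1 and 2. With 1 library on each side, these are differences between libraries and carry no test.

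By level per kilobase of principal transcript, the order of the group means differed by source. In Bec_LPCs Rdh10 led at 91.5 CPM per kilobase, followed by Aldh1a1 at 58.6, Dhrs3 at 36.5 and Aldh1a2 at 12.96, with Stra6, Bco1, Crabp2 and Aldh1a3 at 1.25 or less. The libraries of those first 4 genes did not overlap, although Aldh1a1 and Dhrs3 changed places with the union of exons as the length. In NPC_LPCs Aldh1a1 led at 99.0 CPM per kilobase, ahead of Rdh10 at 53.1, Dhrs3 at 34.1 and Stra6 at 12.4, but the libraries of each neighbouring pair in this order overlapped. Within each NPC_LPCs library Dhrs3 lay above Stra6 (62.7 against 22.3 in replicate 1, and 5.55 against 2.58 in replicate 2). The other neighbouring pairs changed order between the libraries. In Hep_LPCs Stra6 at 159, Aldh1a1 at 113 and Rdh10 at 112 CPM per kilobase led Dhrs3 at 25.7 and Bco1 at 14.4. The order of those first 3 was not settled by the data: with the union of exons as the length it became Rdh10, Stra6 and Aldh1a1, and on the deposited FPKM it became Rdh10, Aldh1a1 and Stra6.

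Beyond the 9 genes, 57 other genes of the pathway in 7 lists were examined, of which 35 or 36 could be tested in each comparison. Between Hep_LPCs and NPC_LPCs, 3 of 35 were called higher in Hep_LPCs and 0 lower, where 0.781% of all genes were called. Between Bec_LPCs and NPC_LPCs, 2 of 36 were called higher and 3 lower in Bec_LPCs, and between Bec_LPCs and Hep_LPCs, 1 of 36 higher and 8 lower. Over all genes 11.3% and 33.4% were called in these, so the lists' shares were near or below the background. At an unadjusted p below 0.05 there were 10, 10 and 12 genes, DESeq2 called 7, 8 and 13, and limma-voom called 0, 5 and 8. The lists' median log2 difference was 0.19, -0.15 and -0.43 in these comparisons, in the order given, against -0.0044, 0.010 and 0.031 over all genes.

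Among binding proteins and transporters, Rbp4, the gene of the plasma retinol carrier that STRA6 binds, was at 518 and 513 CPM in Hep_LPCs, 57.3 and 95.4 CPM in NPC_LPCs, and 26.8 and 22.5 CPM in Bec_LPCs. The groups did not overlap, in the same order as for Stra6. Rbp4 was called higher in Hep_LPCs than in NPC_LPCs (log2 2.73 ± 0.34 SE, edgeR adjusted p = 0.0427), lower in Bec_LPCs than in NPC_LPCs (log2 -1.63 ± 0.27 SE, edgeR adjusted p = 0.0238) and lower in Bec_LPCs than in Hep_LPCs (log2 -4.39 ± 0.30 SE, edgeR adjusted p = 0.00134). The first call was lost with limma-voom (adjusted p = 0.0646) and without either Hep_LPCs library (edgeR adjusted p = 0.175 and 0.206), the second without either Bec_LPCs library (edgeR adjusted p = 0.169 and 0.211), and the last in no setting. Ttr, the gene of transthyretin, which binds RBP4 in plasma, had 44 and 26 reads in Bec_LPCs, 0 and 1 in NPC_LPCs, and 22 and 27 in Hep_LPCs, and was called higher in Bec_LPCs than in NPC_LPCs (edgeR adjusted p = 0.0284), a call lost without either Bec_LPCs library or without NPC_LPCs replicate 1. Fabp5, a fatty acid carrier that also binds retinoic acid, was at 24.8 and 28.5 CPM in Bec_LPCs against 195 and 99.2 CPM in Hep_LPCs (log2 -2.47 ± 0.43 SE, edgeR adjusted p = 0.0121). Stra6l went the other way from Stra6, at 8.10 and 4.24 CPM in Bec_LPCs against 0.468 and 0.653 CPM in Hep_LPCs (log2 3.45 ± 0.85 SE, edgeR adjusted p = 0.0287). The Fabp5 call was lost without either Bec_LPCs library (edgeR adjusted p = 0.0850 and 0.0719). The Stra6l call was lost with limma-voom (adjusted p = 0.117) and when any library of Bec_LPCs or Hep_LPCs was left out (edgeR adjusted p up to 0.128).

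Hnf4a, a hepatocyte transcription factor gene listed with carotenoid cleavage, was at 248 and 263 CPM in Hep_LPCs, 28.8 and 51.2 CPM in NPC_LPCs, and 126 and 104 CPM in Bec_LPCs. It was called higher in Hep_LPCs than in NPC_LPCs (log2 2.65 ± 0.35 SE, edgeR adjusted p = 0.0481), higher in Bec_LPCs than in NPC_LPCs (log2 1.52 ± 0.30 SE, edgeR adjusted p = 0.0334) and lower in Bec_LPCs than in Hep_LPCs (log2 -1.15 ± 0.29 SE, edgeR adjusted p = 0.0308). The first of these calls was lost with limma-voom (adjusted p = 0.0646). Cdx2 was called lower in Bec_LPCs than in both other groups (edgeR adjusted p = 0.00213 against NPC_LPCs and 4.95e-04 against Hep_LPCs), with 2 reads in each Bec_LPCs library, so no fold is given. The Cdx2 calls against Bec_LPCs were kept with each library left out. The Hnf4a calls were each lost in some of these cases, with adjusted p up to 0.206, 0.225 and 0.186.

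Of the nuclear receptors Rarg was called, lower in Bec_LPCs (30.3 and 28.5 CPM) than in Hep_LPCs (54.7 and 59.4 CPM; log2 -0.96 ± 0.19 SE, edgeR adjusted p = 0.0153). The other 4 tested receptors were called in no comparison. Of the oxidoreductases Dhrs9, which oxidises retinol, was called lower in Bec_LPCs (1.10 and 2.44 CPM) than in Hep_LPCs (25.1 and 6.76 CPM; log2 -3.17 ± 0.76 SE, edgeR adjusted p = 0.0268). Of the lipid and ester enzymes, the lipase genes Lpl (log2 -2.31 ± 0.44 SE, edgeR adjusted p = 0.0147) and Pnpla2 (log2 -0.81 ± 0.18 SE, edgeR adjusted p = 0.0228) were called lower in Bec_LPCs than in Hep_LPCs. These 4 calls were lost without either Bec_LPCs library, and that of Dhrs9 also without Hep_LPCs replicate 1.

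Of 14 listed genes that respond to retinoic acid, edgeR called 0 of 10 tested between Hep_LPCs and NPC_LPCs (1 at an unadjusted p below 0.05, 0 calls by DESeq2 and by limma-voom). It called 1 of 11 between Bec_LPCs and NPC_LPCs, near the 11.3% of all genes, and 0 of 11 between Bec_LPCs and Hep_LPCs (0 at an unadjusted p below 0.05), where DESeq2 called 2 and limma-voom 0. The call was Tgm2, the transglutaminase gene, which was lower in Bec_LPCs (279 and 219.7 CPM) than in NPC_LPCs (598 and 443 CPM; log2 -1.06 ± 0.23 SE, edgeR adjusted p = 0.0416). That call was lost with library size alone (edgeR adjusted p = 0.0586), without either Bec_LPCs library and without NPC_LPCs replicate 1. For the genes of the CYP26 enzymes, which degrade retinoic acid, edgeR made 0 calls of the 1 or 2 tested, with 0 at an unadjusted p below 0.05, and DESeq2 made 1 call, between Bec_LPCs and Hep_LPCs. Cyp26b1 was at 5.53 and 4.16 CPM in Bec_LPCs, 7.79 and 14.5 CPM in NPC_LPCs, and 20.3 and 6.64 CPM in Hep_LPCs, with NPC_LPCs and Hep_LPCs overlapping. Cyp26a1 was at 1.78 CPM or less in every library.

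**Figure D4:**
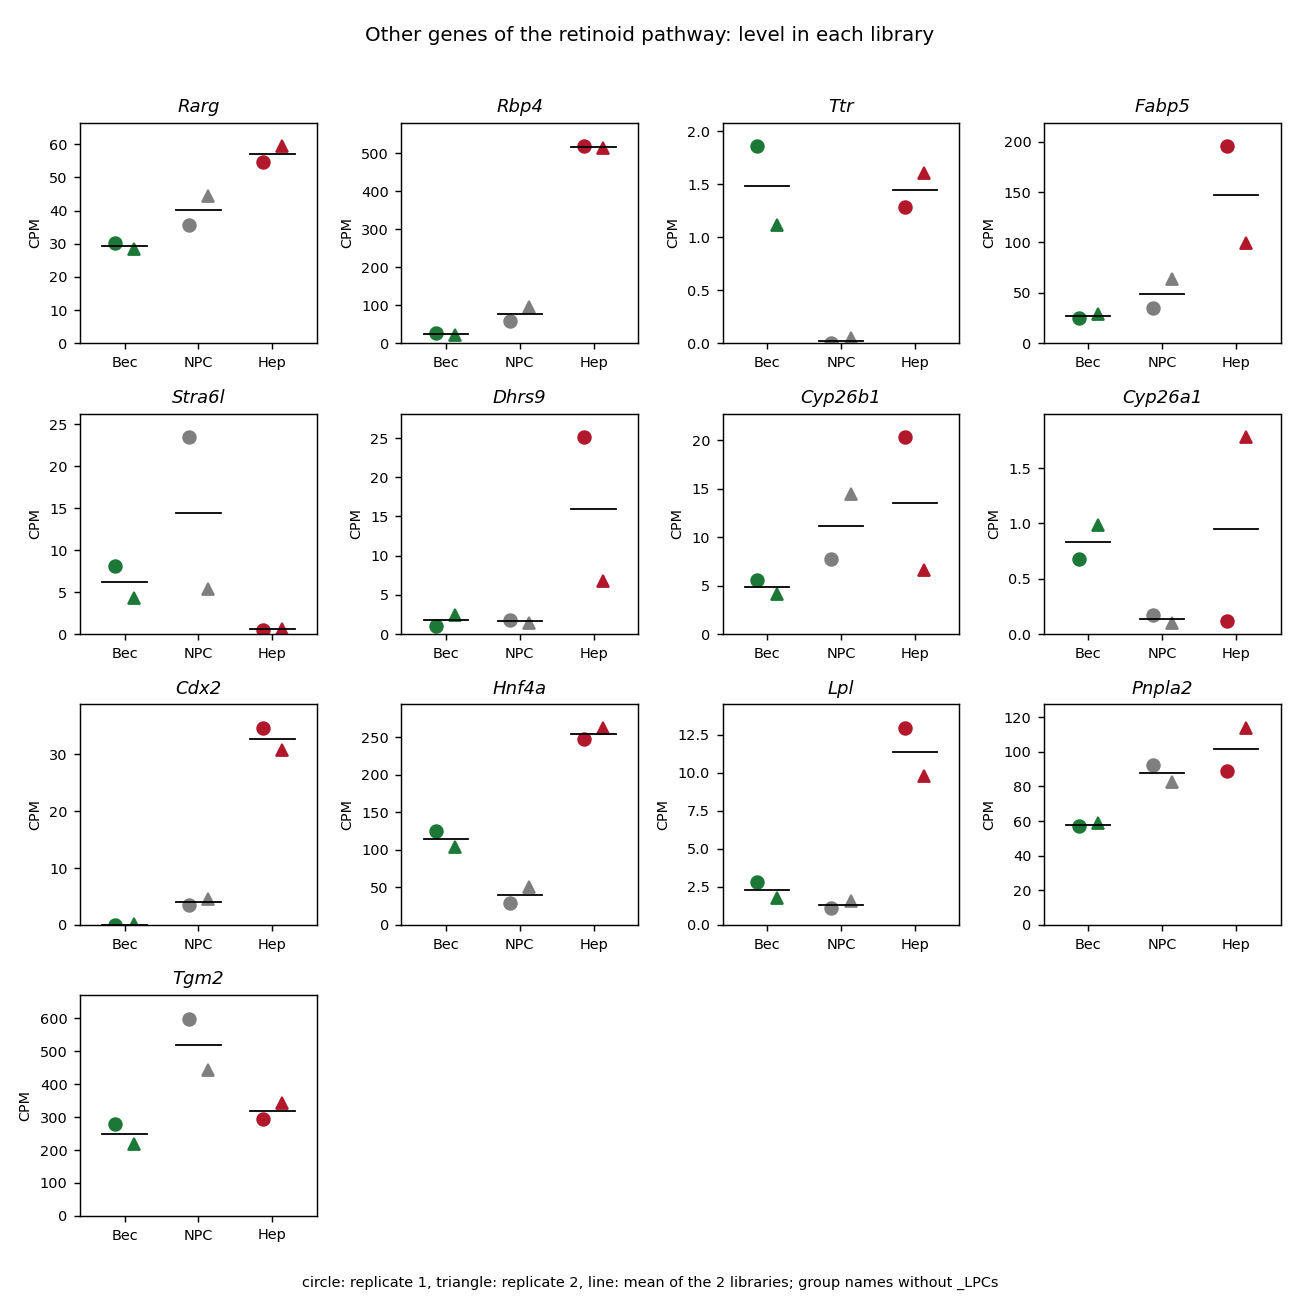
Levels of 13 genes of the pathway lists in each library, as CPM on linear axes that start at 0, with a circle for replicate 1, a triangle for replicate 2 and a line at their mean. Rbp4 separates the groups in the order Hep_LPCs, NPC_LPCs, Bec_LPCs, and Cdx2 is nearly absent from the Bec_LPCs libraries.

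For the 6 members at 10 CPM or more in a group, the genes of nearest profile were found by the root mean square difference of log2 CPM, centred on each gene's mean over the 6 libraries, among 9932 candidates. Bco1 was nearest to Cobl (0.31), Cracdl (0.44) and Disp2 (0.47). The 3 genes nearest to Aldh1a1 included Ablim3 (0.35) and Renbp (0.48). Aldh1a2 was nearest to Ddr2 (0.29), a collagen receptor gene, then Htr2a (0.42) and Pkp1 (0.46). Stra6 had no close neighbour, with Thpo, the thrombopoietin gene, at 0.57, Wnt10a at 0.72 and Mettl7b at 0.83. Dhrs3 was nearest to Gstt3 (0.46), Slc22a23 (0.58) and Apbb3 (0.59), and Rdh10 to Cmtm7 (0.17), Dusp6 (0.19) and Krt18 (0.20). These distances rest on 6 points that share libraries and group structure, and are a description.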

How the data were processed

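RNA was made into libraries with the TruSeq Stranded mRNA kit and read in pairs, per the labels' protocols. The submitters' processing notes list HTSeq, HISAT2, Trimmomatic, Cufflinks and DESeq, and the build mm10, with versions and roles not given in the sources used here. For each library the authors deposited whole-number counts per gene symbol and, for NPC_LPCs and Hep_LPCs, also FPKM, used here only to check the order of levels. The 14 rows without a name in the Bec_LPCs tables held 44 and 41 reads (0.000191% and 0.000181%) and were left out. RefSeq synonyms replaced 16 older symbols of the Bec_LPCs tables and 837 of the other tables, leaving 20571 shared genes that hold 95.3% to 99.4% of the counts. Positions and lengths are from GENCODE M21, and exons of the 9 genes overlap those of 0 other genes.

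Genes passed edgeR's filterByExpr. Libraries were scaled by TMM and tested with edgeR's quasi-likelihood test (two-sided, Benjamini-Hochberg; edgeR 4.0.16, limma 3.58.1, R 4.3.3), Hep_LPCs against NPC_LPCs in a fit of 4 libraries and Bec_LPCs against each in a fit of 6. The SE is the log2 fold change divided by the root of F. The members and lists were chosen with earlier results of these data known. Text names all 9 members and, of each list, the genes called in a comparison, or otherwise its highest, and the 3 nearest profiles of each member; a few items under this rule are not reported here. Alternatives were DESeq2 1.42.0, its size factors, limma-voom, other scalings, filters, symbols and sets of libraries, genes counted alike (25% shared exonic length at most, bedtools 2.31.1, and no copy of 95% identity over 200 bases, minimap2 2.31-r1302), the replicate block and each library left out.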

Additional observations from a re-analysis of the deposited data

How the results depend on the processing

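Genes called between Hep_LPCs and NPC_LPCs, 95 by edgeR, were 449 with no low-count filter, 1499 by DESeq2's Wald test, 5 by limma-voom, 1274 with 6 libraries in the fit, and 0 to 356 with a library left out. The count was 0 without Hep_LPCs replicate 1 (2026 genes at an unadjusted p below 0.05) and 0 without replicate 2 (2228 genes), and 356 without NPC_LPCs replicate 1. Between Bec_LPCs and NPC_LPCs, 1458 became 2897 by DESeq2, 828 among genes counted alike, 2491 with 4 libraries in the fit, where Aldh1a3 and Crabp2 did not pass the filter, and 115 to 2363 with a library left out (115 and 117 without Bec_LPCs replicate 1 or 2, 850 without NPC_LPCs replicate 1, 2363 and 2349 without Hep_LPCs replicate 1 or 2). Between Bec_LPCs and Hep_LPCs, 4293 became 489 to 4908 with a library left out (491 and 489 without Bec_LPCs replicate 1 or 2). The members called between Hep_LPCs and NPC_LPCs were 2 by DESeq2, 0 by limma-voom (3 at an unadjusted p below 0.05), 2 with 6 libraries and 0 to 3 with a library left out. Between Bec_LPCs and NPC_LPCs they were 2 by DESeq2 and 0 to 2 with a library left out, and between Bec_LPCs and Hep_LPCs 3 in each setting and 2 to 3 with a library left out. The causes were not tested. Scaling by library size alone moved the median of all genes to 0.17 (Bec_LPCs over NPC_LPCs, 939 higher and 594 lower calls against 629 and 829) and to 0.21 (Bec_LPCs over Hep_LPCs, 2703 and 1736 against 2075 and 2218).

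No pairing by replicate number was evident: deviations of same-numbered libraries correlated at -0.00851, 0.0866 and -0.0395 over 12867 genes. With 2 libraries per group, these values cannot tell whether same-numbered libraries were handled together. With the replicate number as a block the counts of called genes were 126, 770 and 3390 and of members 1, 1 and 3, and the calls of Cdx2 (Hep_LPCs over NPC_LPCs), Tgm2 and Ttr (Bec_LPCs over NPC_LPCs) were lost. Uncalled members changed sign as follows. For Bec_LPCs over NPC_LPCs, Aldh1a1 was 0.46 by limma-voom and 0.19 with the block, and Crabp2 was 0.052 with library size alone. For Hep_LPCs over NPC_LPCs, Dhrs3 was 0.43 by limma-voom and 0.39 with the block. With a library left out, Hep_LPCs over NPC_LPCs ran from -0.75 to 3.51 for Aldh1a1 and -1.29 to 2.19 for Dhrs3, Bec_LPCs over NPC_LPCs from -1.68 to 2.54 for Aldh1a1, -0.84 to 0.36 for Crabp2 and -0.78 to 2.67 for Dhrs3, and Bec_LPCs over Hep_LPCs from -0.78 to 0.43 for Rdh10. Of the members' other values, 205 under a setting and 109 with a library left out kept direction and side of the threshold.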
